A study of Mus musculus with 3 samples.

Results

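Antibody heavy chain variable region genes, whose symbols start with Ighv, were followed in activated mouse B cells. The rule took every gene whose deposited symbol starts with Ighv, which gave 29 of the 33700 genes listed, in 13 subfamilies named by the number after Ighv. Reads were found for 24 of them in at least 1 library, and 22 had a mean of at least 1 RPKM (reads scaled to gene length and library size) over the 3 libraries. Total RNA depleted of ribosomal RNA was sequenced from splenic B cells without CD43, taken from C57BL/6 mice and all cultured with LPS and IL4 for 3 days. CD43 is absent from resting mature B cells and present on most other white blood cells, LPS is a bacterial cell wall component that drives B cells to divide, and IL4 is a T cell cytokine that directs antibody class switching. For those 3 days 1 culture also received DMSO, the vehicle, 1 received JQ1+ at 80 nM, an inhibitor of BET bromodomain proteins, and 1 received flavopiridol at 30 nM, an inhibitor of cyclin-dependent kinases including Cdk9. For both drug samples the label on culture has the DMSO wording, so groups follow the treatment label. Each treatment has 1 library, whether mice were pooled or shared is not stated, and no difference below has a replicate check or a p-value.

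Each developing B cell joins 1 variable segment to a D and a J segment, and the joined exon is transcribed from the promoter of the chosen variable segment and spliced to a constant region. The level of an Ighv gene in bulk RNA therefore reflects how many cells chose that segment and how much heavy chain mRNA each of those cells makes. In these bulk libraries fewer cells using a segment and less RNA per cell cannot be told apart. Mouse variable genes fall into subfamilies of related sequence, among them Ighv1 (the large J558 family), Ighv3 (36-60), Ighv6 (J606) and Ighv7 (S107). Activated B cells and plasma cells raise heavy chain mRNA as they turn from membrane to secreted antibody.

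Only a part of the variable genes is analysed here. GENCODE M21, a later annotation, has 185 genes with an Ighv symbol, so shares below are shares of the listed members and not of the antibody repertoire. Of the 29 members 25 were matched by identifier to that annotation. Among these 25, the closest other Ighv transcript was at least 95% identical for 5 and at least 90% identical for 13, and for 16 that closest relative is not a member. Reads from such copies, and from genes not analysed here, may be split among members in a way that could not be checked.

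The identity of 1 subfamily turned on the sequence. The row deposited as Ighv13-2, with the gene type of a pseudogene, carries an identifier that GENCODE M21 calls Ighv6-7, a variable gene, and the row deposited as Ighv13-1 is Ighv13-2 there. The last 300 bases of the variable exon are shown for the 2 members of Ighv6, which led in level, and for these 2 rows, from the GENCODE M21 transcripts in GRCm38, all on the minus strand. Capitals mark bases that differ from Ighv6-3 after alignment or extend past its end. The intervals are chr12:114391712-114392011 for Ighv6-3, chr12:114434788-114435087 for Ighv6-6, chr12:114455626-114455925 for the row Ighv13-2 and chr12:114357759-114358058 for the row Ighv13-1. The authors' build is mm9, so these positions are not those of their alignment.
Ighv6-3: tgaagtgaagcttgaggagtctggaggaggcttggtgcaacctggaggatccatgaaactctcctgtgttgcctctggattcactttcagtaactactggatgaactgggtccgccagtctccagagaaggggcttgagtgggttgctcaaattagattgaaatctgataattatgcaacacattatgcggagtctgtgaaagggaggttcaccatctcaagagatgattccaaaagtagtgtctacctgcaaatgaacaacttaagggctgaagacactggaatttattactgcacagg
Ighv6-6: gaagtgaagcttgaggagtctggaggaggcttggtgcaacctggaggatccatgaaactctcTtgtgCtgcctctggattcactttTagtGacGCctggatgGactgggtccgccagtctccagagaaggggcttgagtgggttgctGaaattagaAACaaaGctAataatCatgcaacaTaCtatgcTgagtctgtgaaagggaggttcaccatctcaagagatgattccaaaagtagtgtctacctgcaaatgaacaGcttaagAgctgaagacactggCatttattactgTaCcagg
Ighv13-2: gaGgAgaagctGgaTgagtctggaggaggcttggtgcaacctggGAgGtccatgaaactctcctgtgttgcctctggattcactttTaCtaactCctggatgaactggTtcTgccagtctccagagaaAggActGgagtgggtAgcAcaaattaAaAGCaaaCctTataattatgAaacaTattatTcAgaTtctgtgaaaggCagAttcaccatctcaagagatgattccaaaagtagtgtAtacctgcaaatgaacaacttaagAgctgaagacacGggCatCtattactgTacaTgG
Ighv13-1: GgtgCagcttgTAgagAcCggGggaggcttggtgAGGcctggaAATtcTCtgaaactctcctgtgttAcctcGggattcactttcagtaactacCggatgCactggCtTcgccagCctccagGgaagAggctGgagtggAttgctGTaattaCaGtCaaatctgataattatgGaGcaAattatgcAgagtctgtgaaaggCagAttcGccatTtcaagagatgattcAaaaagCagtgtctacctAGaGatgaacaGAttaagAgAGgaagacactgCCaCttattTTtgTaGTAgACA
Over this stretch Ighv6-6 was 92.7% identical to Ighv6-3, the row Ighv13-2 was 87.6% identical and the row Ighv13-1 was 80.5% identical. The closest transcript to the row Ighv13-2 over its whole length was Ighv6-6, at 88.0%. Deposited symbols are kept below, and Ighv6 values are also given with this row counted in.

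Ighv6-3 was the most abundant member in every library, and 5 genes carried most of the signal. Its level was 1514 RPKM in DMSO, 2623 in JQ1+ and 970.45 in flavopiridol. Its share of the summed Ighv RPKM was almost level, at 35.3%, 35.4% and 36.4%. The next members in DMSO were Ighv3-6 at 619 RPKM, Ighv6-6 at 617, Ighv7-1 at 534 and Ighv1-18 at 365. The 5 highest members held 85.1% of the summed Ighv RPKM in DMSO, 84.9% in JQ1+ and 84.1% in flavopiridol. The effective number of members, the exponential of the Shannon entropy of the shares, was 7.58, 7.57 and 7.65 in the same order. By this measure the evenness of use among the members was nearly alike in the 3 libraries. Without Ighv6-3 it was 8.40 in DMSO, 8.40 in JQ1+ and 8.73 in flavopiridol.

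**Figure D1:**
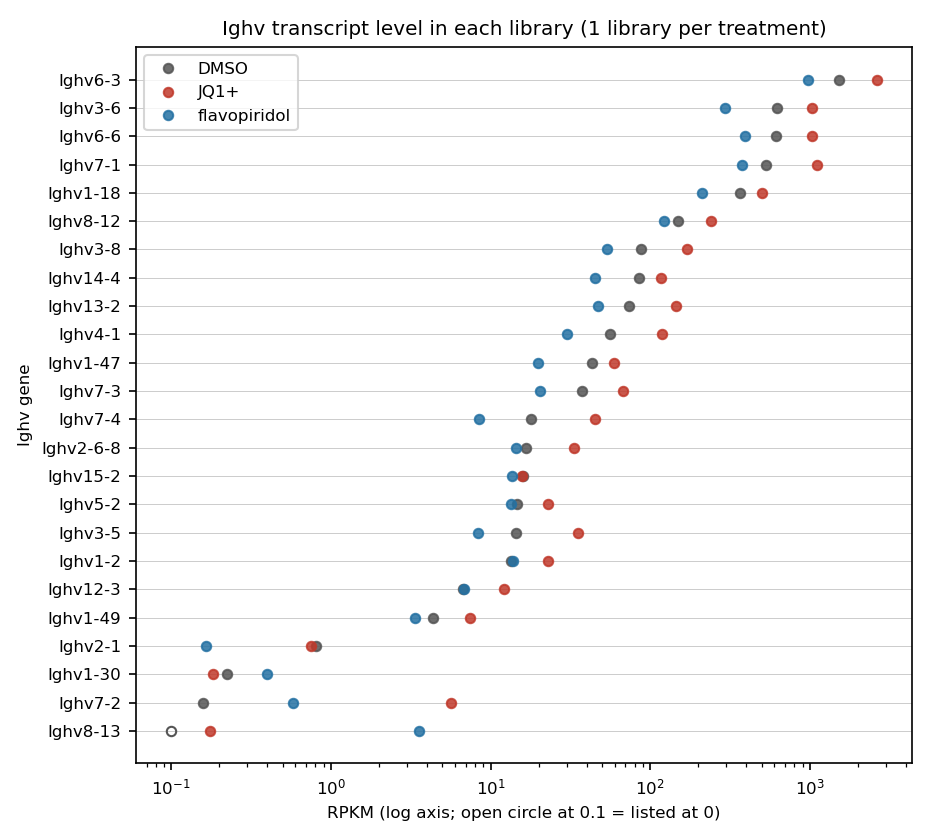
Level of each of the 24 Ighv genes with reads in the DMSO, JQ1+ and flavopiridol libraries, in RPKM on a log axis, with 1 point per library and an open circle for a gene listed at 0. Ighv6-3 stands at the top in each library, and for most genes the order is flavopiridol, DMSO, JQ1+ from left to right.

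Below these, 15 further members had a mean of at least 5 RPKM, from Ighv8-12 (150 RPKM in DMSO, 240 in JQ1+ and 121 in flavopiridol) down to Ighv1-49 (4.36, 7.40 and 3.37). Ighv12-3, a segment used by B-1 cells that recognise phosphatidylcholine, stood at 6.69 RPKM in DMSO, 12.2 in JQ1+ and 6.87 in flavopiridol. Ighv11-1 and Ighv11-2, also known from B-1 cells, were not analysed here. The B-1 marker Cd5 was between 0.577 and 1.10 RPKM, and Spn, the CD43 gene itself, between 41.7 and 46.6 RPKM. Of the low members, Ighv2-1, a pseudogene in RefSeq and GENCODE, had 6, 5 and 1 reads in DMSO, JQ1+ and flavopiridol. Ighv1-30, a pseudogene in RefSeq, had 1, 1 and 2. No reads were listed for Ighv13-1, Ighv16-1, Ighv1-62-1, Ighv1-73 and Ighv8-14. A count of 0 allows up to 3 counts, which is 0.0502 CPM (counts scaled to library size) in DMSO, 0.0585 in JQ1+ and 0.0598 in flavopiridol.

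In the comparison of JQ1+ with DMSO nearly all Ighv transcripts stood higher in JQ1+. The summed Ighv level was 4288 RPKM in DMSO and 7412 in JQ1+, 1.73 times as high (interval 1.69 to 1.77). Intervals here and below are 95% and cover counting error only. Ighv took 0.0524% of all counts in DMSO and 0.0949% in JQ1+. Of the 22 members with a mean of at least 1 RPKM, 21 had a positive log2 change. The median of log2((RPKM + 1)/(RPKM + 1)) over the members was 0.76, beside -0.08 over all 14790 genes that pass the same filter. "Rose" and "fell" are used below only for a change of at least 1 in size. By that rule 5 members rose and 0 fell, where 1.98% of all genes rose and 5.29% fell (7.27% in either direction). The count that rose was 8 of 22 under median-of-ratios scaling, 4 of 20 at a mean of at least 5 RPKM and 3 of 18 by CPM. By CPM the minimum of 1 and the pseudocount of 1 were on the CPM scale, so fewer members passed. No p-value stands behind these counts, and the members share the mRNA of 1 locus.

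The 5 that rose were Ighv7-1, Ighv7-4, Ighv7-2, Ighv4-1 and Ighv3-5. Of these, Ighv7-2 passes the filter only through the JQ1+ library, where it is high. Ighv7-1, called a variable gene in GENCODE and a pseudogene in RefSeq, rose from 534 to 1106 RPKM, 2.07-fold (interval 1.94 to 2.21). Ighv7-4 rose from 17.8 to 45.4 RPKM, 2.55-fold (interval 1.80 to 3.65). Ighv7-2 rose from 0.157 to 5.65 RPKM, which is 1 read in DMSO, 38 in JQ1+ and 4 in flavopiridol, a ratio of 36.0 (interval 1.93 to 535). The fourth Ighv7 member, Ighv7-3, stood at 37.6 and 67.9 RPKM, 1.81 times as high (interval 1.40 to 2.34) and within the 2-fold rule. It too is called a variable gene in GENCODE and a pseudogene in RefSeq. The other two that rose were Ighv4-1, the X24 family member, from 56.3 to 118 RPKM (2.09-fold, interval 1.71 to 2.57), and Ighv3-5, from 14.5 to 35.2 RPKM (2.43-fold, interval 1.64 to 3.66).

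Because reads of Ighv7-2 were nearly all in the JQ1+ library, its sequence is shown beside its closest relative Ighv7-3, as the last 300 bases of each variable exon from GENCODE M21, at chr12:113912025-113912324 and chr12:114153180-114153479 of GRCm38, minus strand. Capitals mark bases of Ighv7-2 that differ from Ighv7-3 after alignment or extend past its end.
Ighv7-3: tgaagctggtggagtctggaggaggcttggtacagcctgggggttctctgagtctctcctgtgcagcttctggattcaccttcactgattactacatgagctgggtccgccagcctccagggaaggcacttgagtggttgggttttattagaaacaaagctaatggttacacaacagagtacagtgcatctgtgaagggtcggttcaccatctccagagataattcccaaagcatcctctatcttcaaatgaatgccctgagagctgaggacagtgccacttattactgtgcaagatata
Ighv7-2: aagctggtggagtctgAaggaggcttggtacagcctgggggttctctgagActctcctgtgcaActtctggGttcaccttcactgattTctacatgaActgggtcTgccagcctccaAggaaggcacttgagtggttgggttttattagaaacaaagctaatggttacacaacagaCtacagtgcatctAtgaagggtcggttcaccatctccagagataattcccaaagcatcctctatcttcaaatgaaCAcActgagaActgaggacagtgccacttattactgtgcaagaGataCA
Of the 300 bases of Ighv7-2, 17 are in capitals. Whether some reads of Ighv7-2 came from cells using Ighv7-3 was not tested. Ighv7-3 had 282 reads in DMSO, 457 in JQ1+ and 125 in flavopiridol.

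Of the 5 highest members, 3 had JQ1+ ratios whose interval held that of the constant region, Ighv7-1 lay above it and Ighv1-18 below it. Ighm, the IgM constant gene spliced to the same transcripts, was 1.74 times as high in JQ1+ as in DMSO. Ighv6-3 was 1.73 times as high (interval 1.66 to 1.80), Ighv6-6 1.68 times (interval 1.58 to 1.79) and Ighv3-6 1.66 times (interval 1.56 to 1.76). Of the 21 members with reads in both libraries and a mean of at least 1 RPKM, the interval held the Ighm ratio for 15, lay above it for Ighv7-1, Ighv7-2 and Ighv7-4, and lay below it for Ighv1-18, Ighv14-4 and Ighv15-2. Ighv1-18, of the J558 family, went from 365 to 503 RPKM, 1.38 times as high (interval 1.26 to 1.51). Ighv14-4, of the SM7 family, went from 84.7 to 117 RPKM, 1.38 times as high (interval 1.15 to 1.66). Among the 22 members that pass the filter, Ighv15-2 was the one with a negative change, with 16.0 RPKM in DMSO, 15.6 in JQ1+ and 13.5 in flavopiridol. Its ratio for JQ1+ was 0.975 (interval 0.612 to 1.55). Its closest relative in the annotation, Ighv1-9, was 73.8% identical, so it is among the members with the least similar copies.

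**Figure D2:**
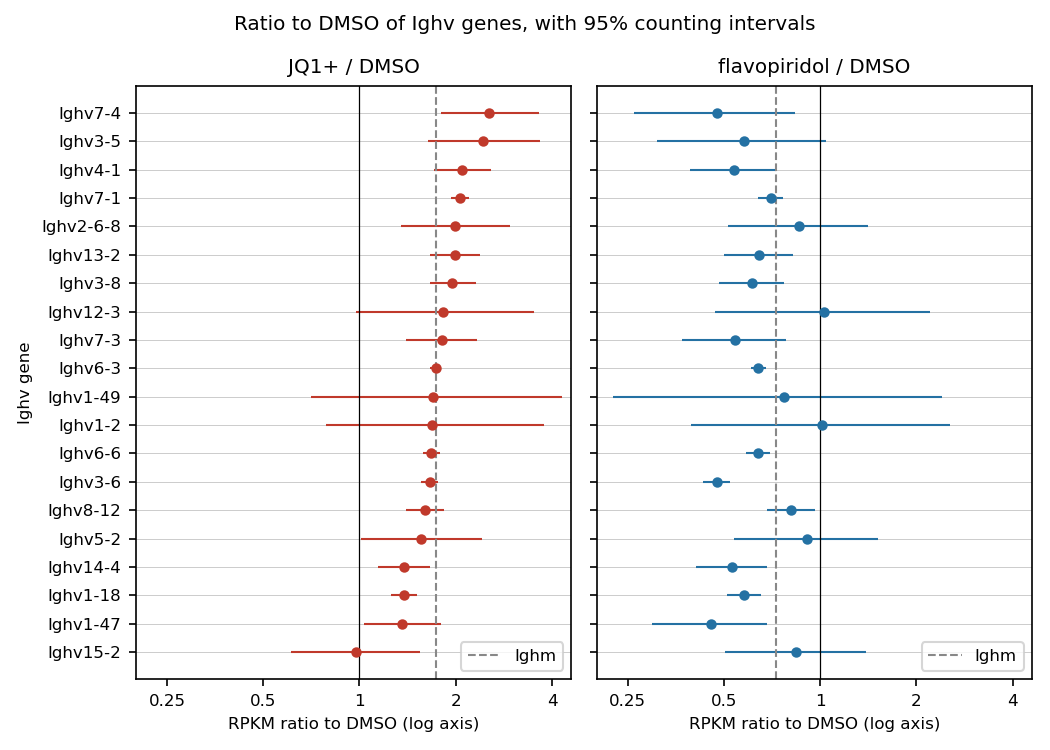
Ratio of RPKM to DMSO for the 20 Ighv genes whose mean reached 5 RPKM, on log axes, for JQ1+ (left) and flavopiridol (right), with bars for the 95% counting interval and a dashed line at the ratio of Ighm. In JQ1+ the points run from 0.975 for Ighv15-2 to 2.55 for Ighv7-4, and in flavopiridol from 0.456 for Ighv1-47 to 1.03 for Ighv12-3.

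The order of the segments in the locus went with the JQ1+ ratio in part. Taken from the side of the J segments, the ratio to DMSO had a Spearman correlation of -0.48 with order over the 19 members with a mean of at least 5 RPKM and a GENCODE position, which all share the same libraries. The 4 genes farthest from the J segments, Ighv1-18, Ighv1-47, Ighv1-49 and Ighv8-12, had ratios of 1.38, 1.36, 1.70 and 1.60. For the last 3 of these the interval held the Ighm ratio of 1.74. Ighv2-6-8, Ighv7-1 and Ighv4-1, close to the J segments, had ratios of 1.98, 2.07 and 2.09. The most J-proximal of these members, Ighv5-2, went against this order with a ratio of 1.55 (interval 1.01 to 2.41), as did Ighv14-4, on the same side of the locus, at 1.38. The same correlation was 0.0053 for flavopiridol against DMSO. The correlation of the JQ1+ ratio with the mean level of the gene was -0.01 over 20 members.

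**Figure D3:**
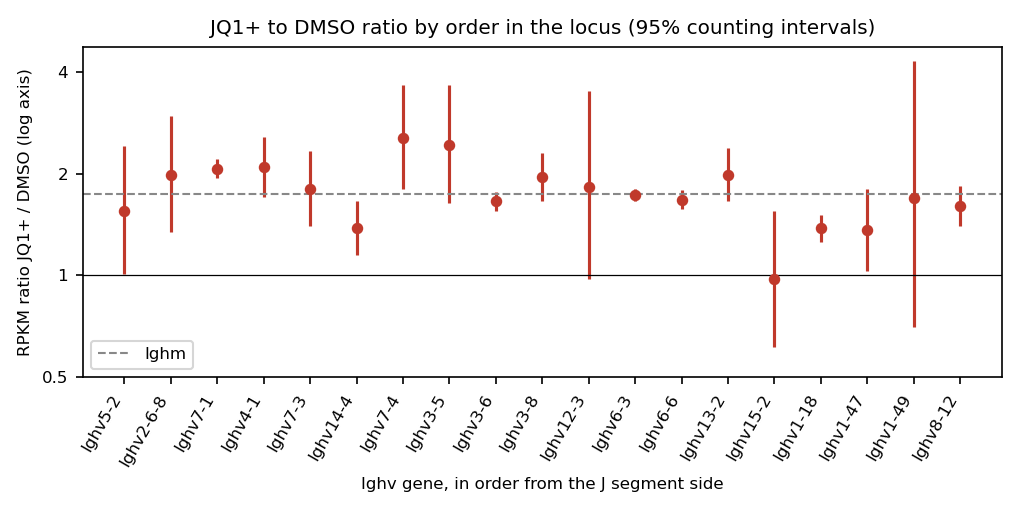
Ratio of JQ1+ to DMSO (log axis) for 19 Ighv genes placed in their order in the locus from the J segment side, with 95% counting intervals and a dashed line at the Ighm ratio of 1.74. Ighv7-4 and Ighv3-5, at 2.55 and 2.43, stand highest, and Ighv15-2, at 0.975, stands lowest.

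In the comparison of flavopiridol with DMSO most Ighv transcripts stood lower. The summed level was 2669 RPKM with flavopiridol against 4288 in DMSO, 0.622 times as high (interval 0.602 to 0.643), and Ighv took 0.0317% of counts. Of the 22 members 18 had a negative change, and the median was -0.63 beside 0.13 over all genes. By the 2-fold rule 2 members fell and 1 rose, where 2.88% of all genes fell and 3.55% rose (6.43% in either direction). The member that rose, Ighv8-13, passes the filter only through the flavopiridol library, where it is high, and at a mean of at least 5 RPKM 0 rose. Under median-of-ratios scaling, which shifts the change of all genes by -0.14 at the median, 5 members fell and 1 rose.

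The falls were in Ighv3-6 and Ighv1-47. Ighv3-6, of the 36-60 family, fell from 619 to 294 RPKM, a ratio of 0.475 (interval 0.432 to 0.522). Ighv1-47 fell from 43.5 to 19.8 RPKM, a ratio of 0.456 (interval 0.299 to 0.681). With a pseudocount of 5 RPKM, or by CPM with 18 members, 1 member fell, and by either of these 0 rose. Ighv7-4 stood at 17.8 and 8.50 RPKM, a ratio of 0.477 (interval 0.261 to 0.835), and is within the rule only through the pseudocount: with one of 0.1 RPKM 3 members fell. Next in size were Ighv14-4, at 84.7 and 44.9 RPKM, and Ighv4-1, at 56.3 and 30.3 RPKM, both within the 2-fold rule. Ighv6-3 had a ratio of 0.641 and Ighv6-6 of 0.640.

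For several low members the interval of the flavopiridol ratio held 1. Ighv12-3 had a ratio of 1.03 (interval 0.470 to 2.20), Ighv1-2 of 1.02 (interval 0.394 to 2.55), Ighv5-2 of 0.91 (interval 0.537 to 1.52), Ighv2-6-8 of 0.86 (interval 0.516 to 1.41) and Ighv15-2 of 0.843 (interval 0.504 to 1.39). These wide intervals also hold the Ighm ratio of 0.728, so no difference from the constant region was detectable at this depth. Of these members, Ighv1-2 is called a pseudogene in RefSeq and was not matched to GENCODE M21. Ighv8-12 was more deeply counted and stood at 0.812 of DMSO (interval 0.684 to 0.963). The Spearman correlation of the ratio with the mean level of the gene was -0.42 over 20 members. Of 21 members, the interval held the Ighm ratio for 14 and lay below it for 7: Ighv1-18, Ighv1-47, Ighv3-6, Ighv4-1, Ighv6-3, Ighv6-6 and Ighv14-4.

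Ighv8-13 was the member that rose. It had 0 reads in DMSO, 1 in JQ1+ and 19 in flavopiridol, where it stood at 3.57 RPKM. These counts are few. For JQ1+ against flavopiridol the ratio was 0.0491, and its interval of 0.0029 to 1.07 held 1. That interval uses counts divided by the factors given under data processing. From undivided counts it was 0.0012 to 0.309 and left out 1. Ighv8-9, not analysed here, is its closest relative in the annotation, and the last 300 bases of both variable exons are shown because few bases separate them, at chr12:115765333-115765632 for Ighv8-13 and chr12:115468332-115468631 for Ighv8-9 of GRCm38, minus strand. Capitals mark bases of Ighv8-9 that differ from Ighv8-13 after alignment or extend past its end.
Ighv8-13: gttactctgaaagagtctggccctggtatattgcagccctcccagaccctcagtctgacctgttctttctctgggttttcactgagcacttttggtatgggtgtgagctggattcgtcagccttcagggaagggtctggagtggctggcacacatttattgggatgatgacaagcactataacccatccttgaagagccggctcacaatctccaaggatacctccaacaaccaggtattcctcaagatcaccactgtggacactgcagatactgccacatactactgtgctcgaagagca
Ighv8-9: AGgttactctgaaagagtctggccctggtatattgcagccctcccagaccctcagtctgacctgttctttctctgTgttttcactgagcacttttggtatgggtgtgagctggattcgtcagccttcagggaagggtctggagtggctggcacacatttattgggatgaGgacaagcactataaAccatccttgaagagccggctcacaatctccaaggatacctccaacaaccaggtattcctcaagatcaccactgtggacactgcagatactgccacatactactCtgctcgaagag
Only 6 bases of Ighv8-9 are in capitals, of which the first 2 lie past the end of the other. The member Ighv8-12 was 96.3% identical to Ighv8-13, with 992 reads in DMSO, 1424 in JQ1+ and 657 in flavopiridol. Which of these genes the 19 reads came from was not tested.

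Between the drugs, 15 of 22 members stood at least 2-fold higher in JQ1+ than in flavopiridol and 1, Ighv8-13, stood lower, where 2.06% of all genes were higher and 6.87% lower (8.92% in either direction). The call of Ighv8-13 is lost when its counting interval, from divided counts, must also leave out 1. Its interval from undivided counts leaves out 1. The summed Ighv level was higher in JQ1+ by a factor of 2.78 (interval 2.69 to 2.86). The median over members was 1.41 beside -0.21 over all genes. Ighv7-4 stood at 45.4 RPKM in JQ1+ and 8.50 in flavopiridol, 5.34-fold higher (interval 3.23 to 9.31). Ighv3-5 stood 4.20-fold higher (interval 2.49 to 7.48), Ighv4-1 3.89-fold (interval 2.95 to 5.21) and Ighv3-6 3.49-fold (interval 3.19 to 3.82). Ighv15-2 was nearest to level among members of at least 5 RPKM, at 1.16 times (interval 0.692 to 1.95). The doses of the compounds differ.

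By subfamily, Ighv6 held about the same share in DMSO and JQ1+. For Ighv3, Ighv7, Ighv1 and Ighv8, the interval of the share did not meet that of DMSO with 1 of the drugs. Ighv6 made up 49.7% of the summed Ighv RPKM in DMSO (interval 48.8 to 50.6), 49.4% in JQ1+ (interval 48.6 to 50.1) and 51.2% in flavopiridol (interval 49.9 to 52.5). With the row Ighv13-2 counted in, as in GENCODE M21, these were 51.4%, 51.3% and 52.9%. Ighv7 went from 13.8% in DMSO (interval 13.1 to 14.4) to 16.5% in JQ1+ (interval 16.0 to 17.1) and 15.1% in flavopiridol (interval 14.2 to 16.1). Ighv3 had 16.8% in DMSO (interval 16.1 to 17.5), 16.6% in JQ1+ (interval 16.1 to 17.2) and 13.3% in flavopiridol (interval 12.4 to 14.3). Ighv1 had 9.95% in DMSO (interval 9.35 to 10.6), 7.998% in JQ1+ (interval 7.57 to 8.44) and 9.29% in flavopiridol (interval 8.47 to 10.2). Ighv8 had 3.49% in DMSO (interval 3.14 to 3.87), 3.24% in JQ1+ (interval 2.97 to 3.52) and 4.68% in flavopiridol (interval 4.11 to 5.31). Thus the intervals of JQ1+ and DMSO did not meet for Ighv7 and Ighv1, and those of flavopiridol and DMSO did not meet for Ighv3 and Ighv8. Most of each of these differences lay in 1 gene. Ighv7-1 had 12.5% in DMSO and 14.9% in JQ1+, and Ighv1-18 had 8.51% and 6.79%. Ighv3-6 had 14.4% in DMSO and 11.0% in flavopiridol, and Ighv8-12 had 3.49% and 4.55%. The remaining subfamilies each held under 2% in each library. Where intervals met, as for Ighv7 in flavopiridol and DMSO, the shares may still differ beyond counting error. With 1 culture per treatment, a difference beyond counting error is not shown to exceed that between cultures of 1 treatment.

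**Figure D4:**
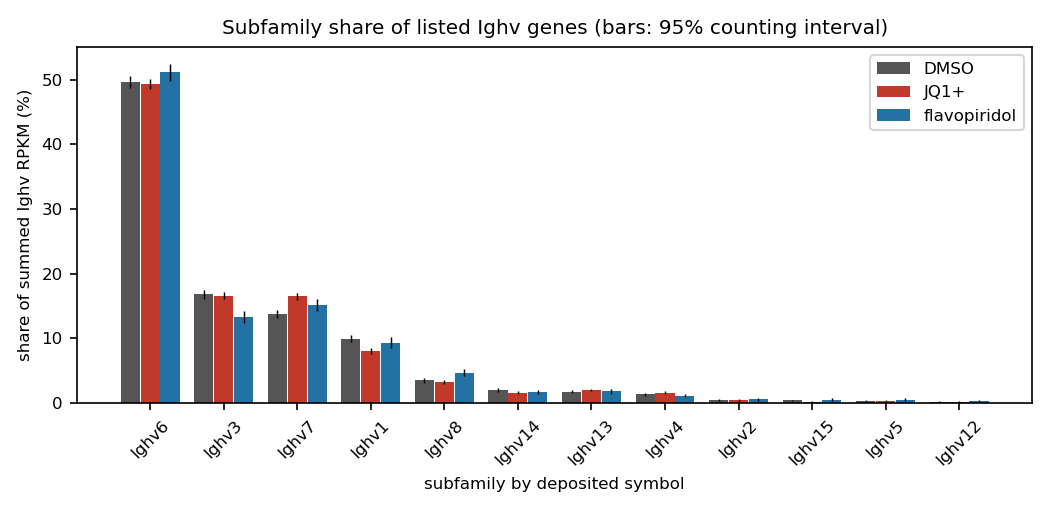
Share of each subfamily in the summed RPKM of the listed Ighv genes, in percent, for the DMSO, JQ1+ and flavopiridol libraries, with bars for the 95% counting interval. Ighv6 holds 49.4% to 51.2%, Ighv7 is highest in JQ1+ at 16.5%, and Ighv3 is lowest in flavopiridol at 13.3%.

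Set beside the other antibody genes, the Ighv sum kept near the IgM constant gene in JQ1+ and stood further below it in flavopiridol. Ighv was 12.2% of the Ighm RPKM in DMSO, 12.1% in JQ1+ and 10.4% in flavopiridol. The 4 heavy chain J segments summed to 6087 RPKM in DMSO, 9785 in JQ1+ and 3714 in flavopiridol, 1.61 times DMSO with JQ1+ (interval 1.52 to 1.70) and 0.610 times with flavopiridol (interval 0.568 to 0.656). The constant genes of IgG and IgE together went the other way in JQ1+, at 0.397 times DMSO (interval 0.388 to 0.406), and were 0.314 times with flavopiridol (interval 0.306 to 0.322). As a percentage of all these constant genes with Ighm, Ighv was 11.0 in DMSO, 11.8 in JQ1+ and 9.93 in flavopiridol. The 59 kappa variable genes summed to 1.56 times DMSO with JQ1+ (interval 1.52 to 1.60) and 0.602 times with flavopiridol (interval 0.584 to 0.622). The interval for JQ1+ lay below that of Ighv, and the intervals for flavopiridol overlapped. The 3 lambda variable genes differed, at 1.99 times DMSO with JQ1+ (interval 1.94 to 2.04) and 1.13 times with flavopiridol (interval 1.097 to 1.16).

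**Figure D5:**
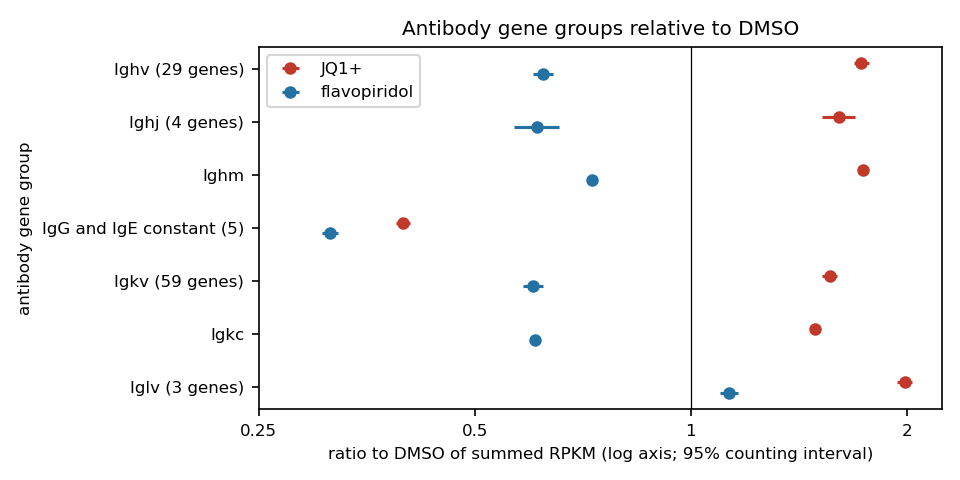
Ratio to DMSO of the summed RPKM of antibody gene groups for JQ1+ and flavopiridol, on a log axis, with 95% counting intervals that are often narrower than the points. Ighv lies at 1.73 for JQ1+ and 0.622 for flavopiridol, near Ighj, Ighm, Igkv and Igkc, while the IgG and IgE constant genes lie below 1 with both drugs.

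Genes that act on variable genes were mostly within 2-fold. Of the 3 octamer genes, Pou2f1 and Pou2f2, whose products bind the octamer of antibody promoters, and Pou2af1, their B cell coactivator, 0 passed the 2-fold rule with either drug, and the list medians were 0.09 with JQ1+ and -0.11 with flavopiridol. Pou2f2 stood at 60.8 RPKM in DMSO, 69.5 in JQ1+ and 42.5 in flavopiridol. Rag1, Rag2 and Dntt, which act when the segments are joined, were at or below 0.123 RPKM in all 3 libraries. Of 7 secretory programme genes, Prdm1 rose with JQ1+ (26.9 to 67.2 RPKM) and with flavopiridol (to 56.5), Sdc1 rose with flavopiridol (13.4 to 32.6), and 0 fell. The J chain gene Igj, which joins IgM into pentamers, stood at 783, 693 and 501 RPKM in DMSO, JQ1+ and flavopiridol. Of 5 receptor signalling genes, Syk alone passed the rule, rising with JQ1+ from 54.5 to 132 RPKM. Cd79a, a signalling chain of the receptor, stood at 477, 507 and 266 RPKM.

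Markers of other cells were low, and some B cell markers moved with the drugs. The 6 B cell markers summed to between 3900 and 4707 RPKM, with Ms4a1 higher in JQ1+ by the rule. The 5 T cell markers summed to 0.843 RPKM in DMSO, 1.42 in JQ1+ and 0.930 in flavopiridol, and Cd3e was at 0 in both drug libraries. The 5 myeloid markers summed to 7.88, 7.48 and 14.0 RPKM. Of them Emr1 rose with flavopiridol, at 0.922, 0.801 and 9.47 RPKM, while Csf1r stood at 6.41, 4.03 and 3.94, and the part of such cells in the Ighv values was not tested. The 3 natural killer markers summed to between 1.36 and 2.80, with Ncr1 at 0 in all 3, and the 2 erythroid markers found to at most 0.227. Among 5 marginal zone markers Dtx1 rose with JQ1+ from 23.5 to 50.8 RPKM and stood at 13.3 in flavopiridol. Of 3 follicular markers 0 passed the rule, and Fcer2a stood at 606, 305 and 324 RPKM. The part of a shift between B cell subsets or towards plasma cells in the Ighv values was not tested. The libraries held 59786847 counts in DMSO, 51247080 in JQ1+ and 50184508 in flavopiridol, of which Ighv took 31333, 48655 and 15892.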

How the data were processed

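RNA was measured in 3 libraries, grouped by the treatment label. Per the labels' protocols, Trizol RNA was depleted of ribosomal RNA and made into Illumina libraries. The submitters' processing notes name mm9; for aligner, counting program, annotation, strand and multiple matches nothing is stated in the labels. The deposited counts are whole numbers per gene, not normalised (per the file headers). Deposited beside them are RPKM, which the authors scaled to gene length and a library total. That total, the most frequent value of counts over RPKM and GENCODE M21 exon length among genes with at least 100 counts, was 21047761, 18846494 and 17162673 in DMSO, JQ1+ and flavopiridol, so counts summed to 2.84, 2.72 and 2.92 times it. These totals are inferred, and 44.3%, 43.5% and 44.1% of those genes matched them within 0.1%. The reason was not tested, and counts were divided by these factors for all intervals, with at least 1 fragment for a count above 0.

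Ratios use RPKM with exact conditional binomial 95% intervals, and shares use Clopper-Pearson intervals scaled to RPKM; both, and the floor of 3 undivided counts, cover counting error only. Calls use a pseudocount of 1 RPKM, a 3-library mean of at least 1 RPKM and a 2-fold size rule over distinct symbols. There is no test. Rows were joined by identifier, since their order differs between tables. Sequences were compared by global alignment (Biopython 1.88) with free ends. Calls and intervals were run on simulated Poisson counts with Python 3.11.15, numpy 2.4.6 and scipy 1.17.1. Those counts were undivided and had no spread between cultures, so the run checks the computation only.

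Named genes were the 10 highest in DMSO, the 6 largest rises and falls per comparison at a mean of at least 5 RPKM, the highest member of each subfamily, the B-1 segments, and the 2 largest and 2 smallest share differences; Ighv7-2, Ighv8-13, Ighv2-1, Ighv1-30 and the members without reads were named after their values were seen. The members and lists were chosen with earlier results of these data known. A gene list of 1 gene is not reported here.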

Additional observations from a re-analysis of the deposited data

How the results depend on the processing

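With 1 library per treatment no left-out replicate could be run. No paired analysis was possible because each group has 1 library and the result comes from no test. The direction of the summed Ighv ratio was kept under the 3 alternatives run for it. By counts the ratio was 1.81 for JQ1+ against DMSO and 3.00 between the drugs. Without the highest member, or without the row Ighv13-2, the ratio stayed inside its counting interval. That row is the only member with reads whose deposited gene type is a pseudogene. Members that RefSeq calls pseudogenes, namely Ighv7-1, Ighv7-3, Ighv1-2, Ighv2-1 and Ighv1-30, were kept in. For JQ1+ against DMSO 8 members rose under median-of-ratios scaling, 3 by CPM and 1 as shares of the summed Ighv RPKM. The CPM setting kept 18 members, since its minimum and pseudocount of 1 are on the CPM scale. The median was 0.85 under median-of-ratios scaling, 0.82 with a pseudocount of 0.1 RPKM and 0.033 as shares. For flavopiridol against DMSO 5 members fell under median-of-ratios scaling, 1 with a pseudocount of 5 RPKM, 1 by CPM and 0 as shares; the count that rose was 2 with a pseudocount of 0.1 RPKM, 0 with a pseudocount of 5 RPKM, 0 at a mean of at least 5 RPKM and 0 by CPM. Its median was -0.56 with the pseudocount of 5 RPKM, -0.77 under median-of-ratios scaling and 0.045 as shares. Between the drugs 1 member was higher and 2 lower as shares, where the median reversed to -0.061; it was 1.33 with a pseudocount of 5 RPKM, 1.64 under median-of-ratios scaling and 1.47 by CPM. The 1 member lower in JQ1+ was 0 with a pseudocount of 5 RPKM, at a mean of at least 5 RPKM, by CPM and with the counting interval added to the rule, the last chosen after seeing the data. As shares the drug ratio also reversed for Ighv1-18 (0.86), Ighv14-4 (0.937), Ighv2-6-8 (0.831), Ighv6-3 (0.973) and Ighv6-6 (0.943), and, among members within 2-fold or with an interval holding 1, for Ighv8-12 (0.711), Ighv5-2 (0.615), Ighv1-49 (0.791), Ighv1-2 (0.599), Ighv12-3 (0.64) and Ighv15-2 (0.416). Relative to Ighm, added after seeing the data, the drug ratio was below 1 for Ighv8-12 (0.827) and Ighv15-2 (0.484), whose counting intervals lay below the Ighm ratio. Its value was also below 1 for Ighv2-6-8 (0.967), Ighv5-2 (0.715), Ighv1-49 (0.92), Ighv1-2 (0.697) and Ighv12-3 (0.744), and level for Ighv1-18 (0.9996). For these the interval held the Ighm ratio, so no difference beyond counting error was seen. The share of Ighv6 was 51.0%, 50.5% and 52.5% by counts in DMSO, JQ1+ and flavopiridol. It was 22.3%, 21.6% and 23.3% without its highest member, and 50.3% in JQ1+ without the row Ighv13-2. By GENCODE M21 symbols, added after seeing the data, it was 51.4%, 51.3% and 52.9%. The effective number was 7.35 in DMSO and 7.34 in JQ1+ by counts. It was 7.19, 7.15 and 7.25 without the row Ighv13-2, and 8.40, 8.40 and 8.73 without the highest member. A share takes out the level common to all members and leaving out a member changes the total; the other causes were not tested. Depth limits members under about 5 RPKM and some above it. Ighv1-2, at a mean of 16.7 RPKM, had a flavopiridol to DMSO ratio with an interval of 0.394 to 2.55.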

Other observations

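Under other symbols the tables hold 2 more rows whose identifiers GENCODE M21 calls Ighv genes. Gm17686, which is Ighv1-13 there, had 3 reads in DMSO, 8 in JQ1+ and 0 in flavopiridol. Gm17309, which is Ighv5-8 there, had 0, 2 and 0. Both lie outside the symbol rule and enter no sum above.

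The single J segments differed in level. Ighj3 stood at 2699 RPKM in DMSO, 4762 in JQ1+ and 1571 in flavopiridol, Ighj4 at 1919.5, 3006 and 1298, and Ighj1 at 1444, 1986 and 826. Ighj2 stood at only 24.6, 30.5 and 18.3 RPKM. All 4 are very short genes. The D segment Ighd1-1 had 19 reads in DMSO, 13 in JQ1+ and 3 in flavopiridol.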
